A study of Rattus norvegicus with 4 samples.

Results

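Endoglin (Eng) and 9 receptors of the TGF-beta and BMP family were followed in rat hepatic stellate cells given an siRNA against endoglin. The 10 genes were chosen by name from the names printed in the array files, with older synonyms and the endings of predicted genes accepted, and control spots left out. They carry 15 of the 41012 gene probes of the array and are 10 of the 25509 genes tested. Hepatic stellate cells lie around the sinusoids of the liver, where they store vitamin A, and they become myofibroblasts that lay down matrix when the liver scars.

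The study labelled the RNA of interest with Cy5 and hybridized it together with Cy3-labelled RNA of stellate cells transfected with a control siRNA, on 4 whole rat genome arrays of 1 slide. The Cy5 RNA came from cells transfected with siRNA against endoglin on 2 arrays and from untreated cells on the other 2 arrays. Within a group, one array used cells of 1 animal and the other used pooled material of 3 animals, and the control siRNA RNA on an array was of the same kind. Strain, age, days in culture, siRNA sequence and time after transfection are not stated. Nor do the labels tell whether the single animal was also in the pool or whether arrays shared a control RNA, so p-values measure only the spread between these arrays.

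Ligands of the TGF-beta family bind pairs of type I and type II serine/threonine kinase receptors, and the type II receptor phosphorylates the type I receptor, which then activates Smad proteins. Endoglin and betaglycan (Tgfbr3) are co-receptors that bind ligand and present it to these pairs but have no kinase of their own. In endothelial cells endoglin acts with the type I receptor ALK1, the product of Acvrl1, and loss-of-function mutations of either gene cause hereditary haemorrhagic telangiectasia in humans.

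Endoglin mRNA was reduced in both endoglin siRNA samples, and 1 partner receptor, Acvrl1, was reduced with it. Relative to control siRNA cells Eng stood at 18.0% (95% interval 12.6 to 25.7%) and Acvrl1 at 44.4% (36.3 to 54.4%) in endoglin siRNA cells. Acvr1 was also lower, at 79.3% (70.5 to 89.1%), but it stood at 81.5% in untreated cells. None of the 9 partner receptors passed the test as higher in endoglin siRNA cells after loess correction of the dye bias, whereas 3 did against control siRNA with median centring, as they did in untreated cells. In all, 3 of the 10 genes passed as lower and 0 as higher, where 7.33% of all genes tested passed as lower and 8.96% as higher.

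Eng was measured by 1 probe, which was well above background in both dyes on all 4 arrays. Its Cy5 signal above the local background was 1564 units with endoglin siRNA in 1 animal and 6198 units in the pool, against Cy3 signals of 4542 and 7552 units for the control siRNA RNA on those 2 arrays. In untreated cells the Cy5 signal was 13587 units in 1 animal and 19955 units in the pool, against Cy3 signals of 5987 and 7498 units for control siRNA. The Cy5 signal of Eng was thus far below that of the untreated cells on both endoglin siRNA arrays, while the control dye differed much less from array to array.

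After removal of the dye bias within each array, Eng had log2 ratios to control siRNA of -3.08 in 1 animal and -1.87 in the pool with endoglin siRNA, and -0.36 and -0.40 in untreated cells. The direction of every ratio follows the dyes in the labels. On both untreated arrays the values in the deposited table run the other way, with the sign reversed. The remaining endoglin mRNA was 11.8% of control in 1 animal and 27.4% in the pool, and 78.1% and 75.7% in the untreated samples, so the groups did not overlap. The mean ratio was -2.47 ± 0.22 (SE, n = 2 arrays, limma adjusted p = 8.5e-04), a 5.56-fold lower level. Only 2 of the 25509 genes had a lower ratio than Eng. Both array values lay outside the 95% interval of the mean (-2.99 to -1.96), since the fit takes its spread in part from all genes, and the difference between the single animal and the pool was larger than this interval.

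Against untreated cells Eng was lower by a log2 difference of -2.09 ± 0.32 (adjusted p = 0.0325). Against control siRNA the untreated cells had a ratio of -0.38 ± 0.22 that did not pass (adjusted p = 0.412), with a spread shared with the endoglin siRNA arrays. This ratio passed as lower with only the untreated arrays in the fit, and it was 0.30 with median centring, which did not pass. Without the pooled untreated array the difference between endoglin siRNA and untreated cells no longer passed (-2.12, adjusted p = 0.0514). It also did not pass when the background was fitted on all spots (-2.02, adjusted p = 0.174), nor did either contrast of Eng pass with the log ratios of the scanner software, by which 0 genes passed in any comparison (7106 at an unadjusted p under 0.05 against control siRNA).

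**Figure D1:**
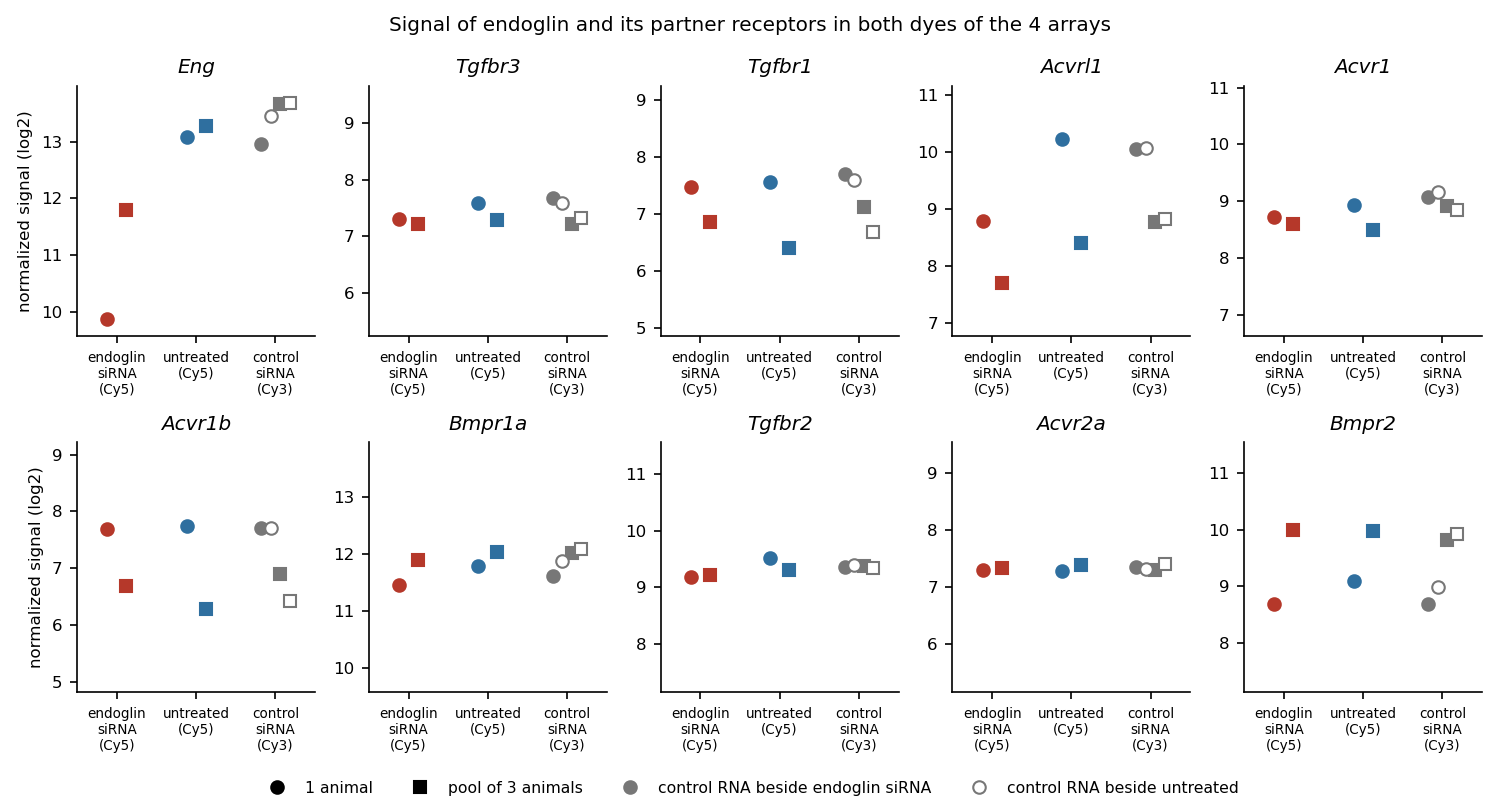
Normalized signal on the log2 scale (vertical axis) of the probe that stands for each of the 10 genes, in endoglin siRNA cells (Cy5), untreated cells (Cy5) and control siRNA cells (Cy3). Circles are 1 animal and squares the pool of 3, and open grey symbols are the control RNA hybridized beside untreated cells. Both endoglin siRNA points lie below all others for Eng. Circles and squares separate in every group for all genes except Tgfbr2 and Acvr2a. In the control siRNA dye they lie furthest apart for Acvrl1, Acvr1b, Bmpr2 and Tgfbr1.

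Tgfbr3 encodes betaglycan, the co-receptor that presents TGF-beta, above all its second isoform, to the type II receptor. Its normalized level was 158 in 1 animal and 149 in the pool with endoglin siRNA, 192 and 155 in untreated cells, and between 149 and 204 in the 4 control siRNA signals, so all groups overlapped. The log2 ratio to control siRNA was -0.37 in 1 animal and 0.00 in the pool, with a mean of -0.18 ± 0.10 (adjusted p = 0.243). The difference from untreated cells was -0.16, with a 95% interval from -0.47 to 0.15.

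Among the type I receptors Acvrl1 changed most. It encodes ALK1, a receptor for BMP9 and BMP10 that signals through Smad1 and Smad5 and is known mainly from endothelium. Its normalized level with endoglin siRNA was 443 in 1 animal and 207 in the pool, against 1206 and 340 in untreated cells and 1062 and 437 in the control siRNA RNA on the endoglin siRNA arrays. On the untreated arrays the control siRNA level was 1080 and 454. Within each kind of RNA the endoglin siRNA sample was the lowest of the 4 signals. The pooled endoglin siRNA sample was the lowest of all 8 signals, while the endoglin siRNA sample of 1 animal was not below the pooled untreated one.

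The log2 ratio of Acvrl1 to control siRNA was -1.26 in 1 animal and -1.08 in the pool with endoglin siRNA, and 0.16 and -0.42 in untreated cells. Its mean with endoglin siRNA was -1.17 ± 0.13 (SE, n = 2 arrays, limma adjusted p = 0.0014), a 2.25-fold lower level and the 42nd lowest ratio of 25509. The difference from untreated cells was -1.04 ± 0.18 (adjusted p = 0.0496), which lies just inside the threshold. Acvrl1 and Eng were the 2 of 10 genes that passed in this comparison, both lower, where 0.561% of all genes passed as lower and 0.239% as higher. In bulk RNA, fewer cells that carry a transcript and less transcript per cell cannot be told apart.

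With the background fitted on all spots, Acvrl1 had a ratio of -0.78 to control siRNA (adjusted p = 0.060) and a difference of -0.73 from untreated cells (adjusted p = 0.560). Neither contrast of Acvrl1 passed with the log ratios of the scanner software (-1.45, adjusted p = 0.0746, and -1.29, adjusted p = 0.410). The deposited value table gave the same (-1.45, adjusted p = 0.0745, and -1.29, adjusted p = 0.410). By either of these, 0 genes passed in any comparison. The difference from untreated cells also missed the threshold without the 1-animal endoglin siRNA array (-0.95, adjusted p = 0.0932), and by less under 3 other settings (adjusted p = 0.0504 to 0.0667).

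Because ALK1 and endoglin are abundant in endothelial cells, endothelial markers were read beside them. Of 10 endothelial markers tested, 1 was higher (Kdr) and 1 lower (Flt1) with endoglin siRNA than with control siRNA. Of all genes, 8.96% passed as higher and 7.33% as lower. The median log2 ratio of the 10 markers was 0.10, beside 0.02 for all genes. Their summed normalized level was 8089 in 1 animal and 4633 in the pool with endoglin siRNA, 5835 and 4028 in untreated cells, and between 4898 and 6459 with control siRNA. On the endoglin siRNA arrays the control siRNA sum was 5592 in 1 animal and 5042 in the pool. Kdr alone made up 4105 of the 8089. The part of endothelial cells in the differences of Eng and Acvrl1 was not tested. The single markers differed in brightness. Kdr, Flt1, Ehd3 and Esam were well above background in 4 of 4 Cy5 and 4 of 4 Cy3 signals. Cdh5 and Vwf were so in 4 of 4 Cy5 and 2 of 4 Cy3 signals, and Tie1 in 3 of 4 and 2 of 4. Pecam1, an endothelial junction protein, and Tek were so in 2 of 4 Cy5 and 1 of 4 Cy3 signals. Lyve1, a marker of sinusoidal endothelium, was so in 2 of 4 and 0 of 4. Kdr and Flt1, which encode receptors for VEGF, moved in opposite directions. Kdr had ratios of 1.33 and 1.29 with endoglin siRNA and -0.03 and -0.06 in untreated cells, and a mean of 1.31 ± 0.07 (adjusted p = 1.3e-04). Flt1 had ratios of -1.07 and -0.996 with endoglin siRNA and -0.10 and -0.17 in untreated cells, and a mean of -1.03 ± 0.07 (adjusted p = 3.4e-04).

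Acvr1b, which encodes the activin type I receptor ALK4, is the nearest of the other members to Acvrl1 on the chromosome. The array files place the Acvrl1 probe at chr7:139960820-139960879 and the Acvr1b probe at chr7:140034593-140034652, both on the plus strand and 73.7 kb apart, without naming the genome build or the exon. The normalized level of Acvr1b was 207 in 1 animal and 103 in the pool with endoglin siRNA, against 215 and 78.0 in untreated cells, and between 85.6 and 209 with control siRNA. Its log2 ratio to control siRNA was -0.02 in 1 animal and -0.22 in the pool, with a mean of -0.12 ± 0.08 (adjusted p = 0.390). Acvr1b therefore overlapped between all groups, next to a gene that differed 2.25-fold.

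Acvr1 encodes ALK2, a type I receptor for BMPs. Its normalized level was 422 in 1 animal and 389 in the pool with endoglin siRNA, against 487 and 359 in untreated cells and between 459 and 574 with control siRNA. The log2 ratio to control siRNA was -0.35 and -0.32 with endoglin siRNA and -0.24 and -0.35 in untreated cells. On each of the 4 arrays the normalized Cy5 level lay below the normalized control siRNA level, whether or not endoglin had been targeted. Both endoglin siRNA levels were below all 4 control siRNA levels, and the untreated levels overlapped with both other groups. The mean with endoglin siRNA passed (-0.34 ± 0.07, adjusted p = 0.0192) and the mean in untreated cells did not (-0.30 ± 0.07, adjusted p = 0.0856), although it passed with the RNA source as a block (-0.30, adjusted p = 0.0322). The difference between these 2 groups was -0.04 (95% interval -0.28 to 0.20, adjusted p = 0.924). Without either endoglin siRNA array the call against control siRNA was lost (adjusted p = 0.148 and 0.136), and it turned to 0.25 with median centring in place of the loess dye correction.

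**Figure D2:**
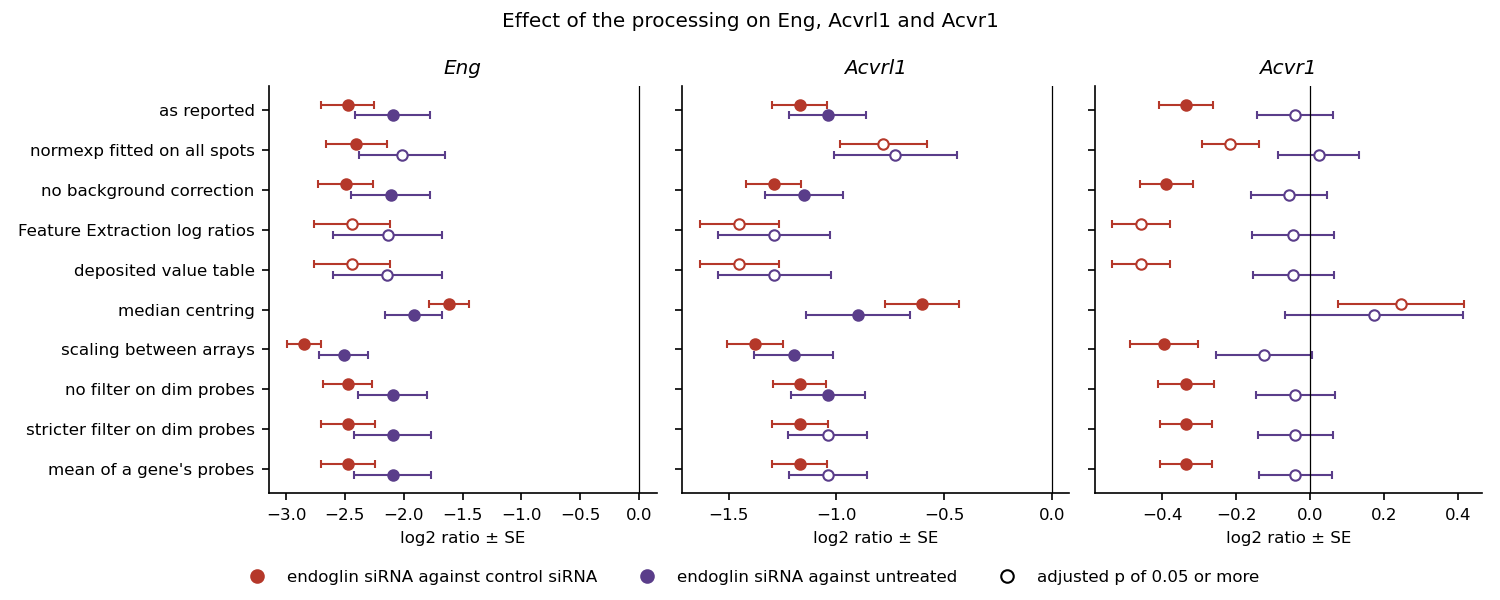
Log2 ratio with its SE (horizontal axis) of Eng, Acvrl1 and Acvr1 as reported and under 9 other ways of processing, for endoglin siRNA against control siRNA and against untreated cells. Open points did not pass the test. Eng and Acvrl1 stay below 0 throughout, and Acvr1 crosses 0 with median centring in both comparisons and, against untreated cells, also with the background fitted on all spots (0.023).

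Tgfbr1 encodes ALK5, the type I receptor that carries TGF-beta signals to Smad2 and Smad3. Its brightest probe had a normalized level of 179 in 1 animal and 116 in the pool with endoglin siRNA, 190 and 84.2 in untreated cells, and between 103 and 209 with control siRNA. The log2 ratio to control siRNA was -0.23 and -0.27 with endoglin siRNA and -0.04 and -0.29 in untreated cells. The mean of -0.25 ± 0.08 did not pass (adjusted p = 0.0763), although its unadjusted 95% interval, -0.44 to -0.06, lay below 0. It passed as lower without background correction (-0.30, adjusted p = 0.0383), with the RNA source as a block (-0.25, adjusted p = 0.0300), and when either or both untreated arrays were left out of the fit (-0.25, adjusted p = 0.0473). The other 2 probes gave -0.20 and -0.01 with endoglin siRNA and 0.15 and 0.03 in untreated cells, so the 3 probes of this gene did not give the same ratio.

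Bmpr1a encodes ALK3, a type I receptor for BMP2 and BMP4. Its log2 ratios to control siRNA were -0.16 and -0.13 with endoglin siRNA and -0.09 and -0.06 in untreated cells. The mean with endoglin siRNA was -0.14 ± 0.07 (adjusted p = 0.212), and the dimmer of its 2 probes gave -0.08. The interval of its difference from untreated cells reached from -0.30 to 0.16.

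The type II receptors stayed close to control siRNA. Tgfbr2 encodes the type II receptor that binds TGF-beta, and its normalized level was 583 and 596 with endoglin siRNA, against 734 and 636 in untreated cells and between 646 and 675 with control siRNA. Both endoglin siRNA signals were therefore the lowest of the 8, by a small margin. The log2 ratio to control siRNA was -0.18 and -0.16 with endoglin siRNA and 0.12 and -0.02 in untreated cells. The mean of -0.17 ± 0.07 did not pass against control siRNA (adjusted p = 0.165), nor did the difference of -0.22 ± 0.11 from untreated cells (adjusted p = 0.474).

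Acvr2a encodes an activin type II receptor, and its level was 158 and 160 with endoglin siRNA, 156 and 168 in untreated cells and between 157 and 170 with control siRNA. Its mean log2 ratio was -0.00 ± 0.07 with endoglin siRNA (adjusted p = 0.980), and its dimmer probe gave -0.09. Bmpr2 encodes the BMP type II receptor, mutated in heritable pulmonary arterial hypertension in humans. It had log2 ratios of -0.00 in 1 animal and 0.18 in the pool with endoglin siRNA, and 0.10 and 0.05 in untreated cells. The mean with endoglin siRNA was 0.09 ± 0.08 (adjusted p = 0.505), and its dimmer probe gave 0.22 in 1 animal and -0.03 in the pool. The order of the 2 endoglin siRNA samples was thus opposite in the 2 probes of Bmpr2.

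**Figure D3:**
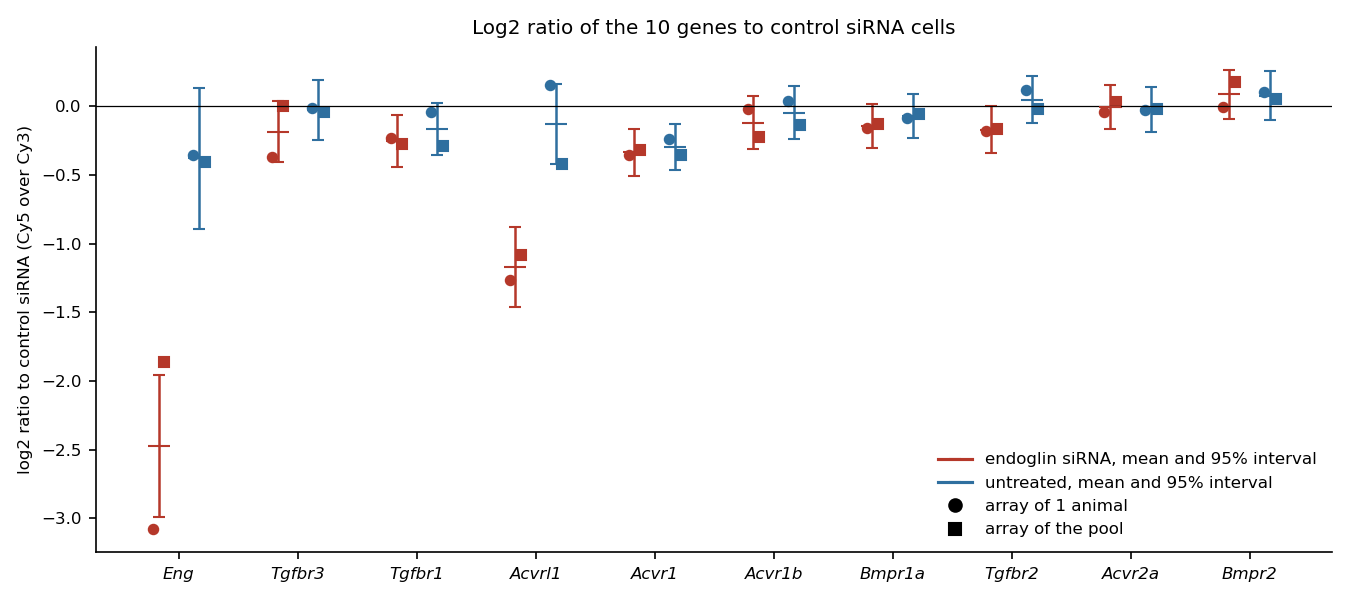
Log2 ratio to control siRNA (vertical axis) of the 10 genes in endoglin siRNA cells (left of each pair) and untreated cells (right), with horizontal dashes for the means, bars for their 95% intervals, circles for the array of 1 animal and squares for the pool. Eng and Acvrl1 stand below the untreated cells with endoglin siRNA, and the interval of Acvr1 lies below 0 in both groups.

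The 95% intervals show how high the measured ratio of each partner receptor could lie under the fit. They are not adjusted for the number of receptors, and the fit takes its spread in part from all genes. For Eng both array values lay outside such an interval. The intervals also do not allow for the offset, which draws the ratios of dim probes towards 0. Over the 9 partner receptors the median log2 ratio to control siRNA was -0.17 with endoglin siRNA and -0.05 in untreated cells, beside 0.02 and 0.00 for all genes. By the probe that stands for each gene, the highest upper bound against control siRNA was 0.27, for Bmpr2, and its upper bound against untreated cells was 0.26. Both correspond to 120% of the level they are set against, and the upper bound of every other partner receptor was lower in both comparisons. The dimmer Bmpr2 probe had upper bounds of 0.28 against control siRNA and 0.38 against untreated cells. These bounds hold for the ratios with the dye bias removed by loess. With each array centred on its median instead, the median of all genes itself was 0.34 against control siRNA. Bmpr1a (0.70), Tgfbr2 (0.48) and Bmpr2 (0.72) then passed as higher with endoglin siRNA, which is 0.36, 0.14 and 0.39 above that median. The same 3 genes passed as higher in untreated cells under that setting (0.50, 0.45 and 0.48, median of all genes 0.19), and 0 partner receptors passed as higher between endoglin siRNA and untreated cells.

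At the level of probes, 13 of the 14 partner probes had a ratio below 0 in 1 animal and 10 of 14 in the pool with endoglin siRNA, against 7 and 10 of 14 in untreated cells. The count in the pool was thus the same in both groups. The share of all gene probes below 0 was not counted. The median ratio of all genes tested was 0.02, 0.02, 0.02 and -0.01 on these arrays, in the same order. The scanner software gives each log ratio an error of its own. By the authors' deposited software p-values, 4 of the 14 partner probes lay below 0 at a p under 0.05 in 1 animal and 5 in the pool with endoglin siRNA, and 0 lay above. Of all gene spots, 6.42% lay below and 6.0% above at that p in 1 animal, and 6.74% below and 6.92% above in the pool. In untreated cells the partner counts were 0 in 1 animal and 2 in the pool below, and 0 above. There, 2.31% of all gene spots lay below and 2.91% above in 1 animal, and 6.38% below and 5.33% above in the pool. Probes of the same gene share their RNA and are no replicates of each other. Several partner probes are dim, and the offset added to the signal draws their ratios towards 0. For Acvr1b in the pool with endoglin siRNA, the ratio was -0.22 here and -0.73 in the authors' deposited log ratio, and for the brightest Tgfbr1 probe it was -0.27 here and -0.77 there.

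**Figure D4:**
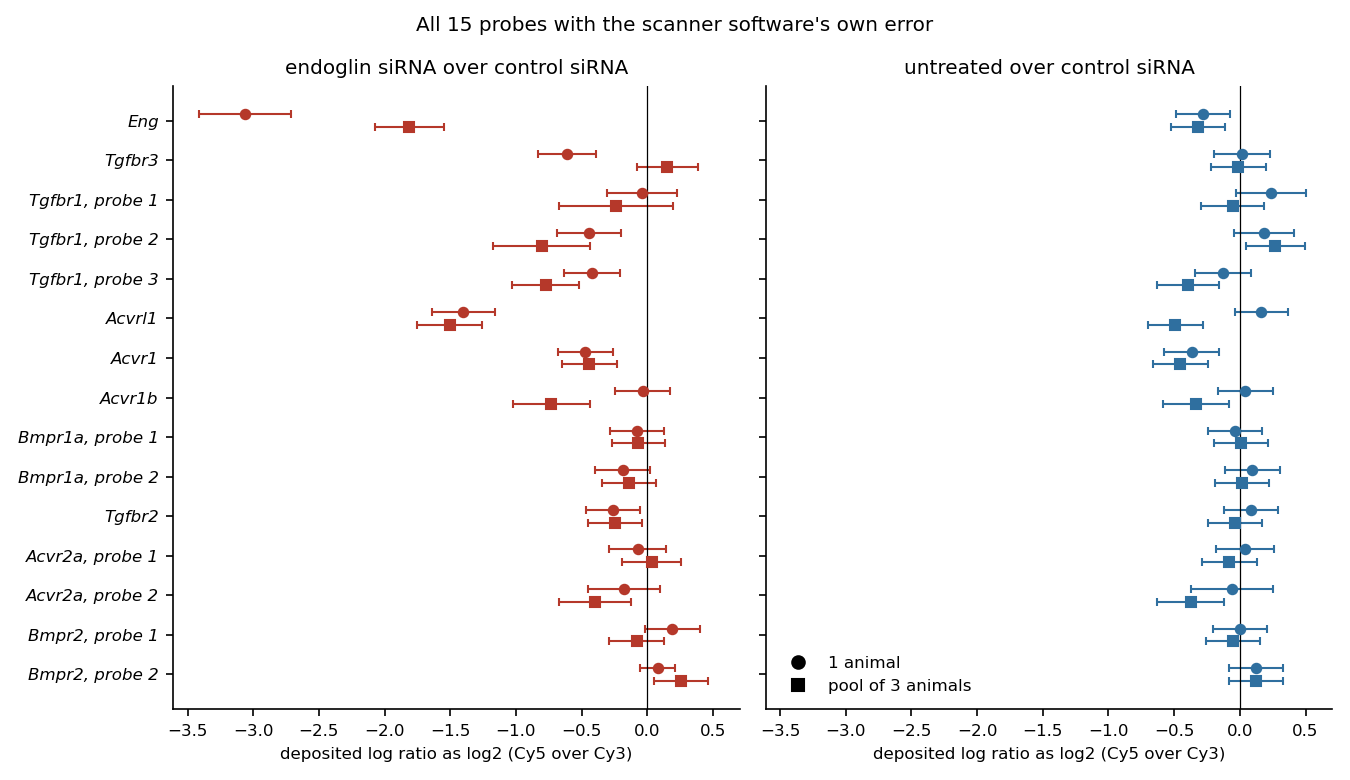
The authors' deposited log ratios, turned to log2 (horizontal axis), of all 15 probes with bars for the error that the scanner software gives, for endoglin siRNA (left panel) and untreated cells (right panel). Circles are 1 animal and squares the pool. Eng and Acvrl1 lie clear of 0 on both endoglin siRNA arrays, and no partner probe lies above 0 on any array at a software p under 0.05.

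In untreated cells none of the 10 genes differed from control siRNA cells beyond the threshold, where 0.761% of all genes tested passed as lower and 1.1% as higher. By limma, 4669 of all genes and Acvr1 alone of the 10 had an unadjusted p under 0.05. Markers of Kupffer cells, the macrophages of the liver, differed here: 7 of 12 were higher in untreated cells than in control siRNA cells and 0 lower. Their summed normalized level was 28365 in 1 animal and 9040 in the pool with endoglin siRNA, against 56284 and 22717 in untreated cells and 27617, 7669, 29771 and 8254 with control siRNA. Between endoglin siRNA and untreated cells 4 of the 12 were lower and 0 higher. Their part in the differences of Eng and Acvrl1 from untreated cells was not tested. Of 11 stellate cell markers tested, 10 or 11 were well above background in every signal. No probe carried the name of Acta2, and the hepatocyte markers Alb, Tat and Cps1 were not tested. With endoglin siRNA against control siRNA, 8.96% of all genes passed as higher and 7.33% as lower. There, 3 of the 11 stellate markers were higher and 2 lower, and in untreated cells 3 were higher and 1 lower. Among them Cygb, the cytoglobin of stellate cells, had a mean ratio of 0.82 ± 0.09 with endoglin siRNA and 0.94 ± 0.09 in untreated cells, and desmin (Des) had -0.61 ± 0.12 and -0.77 ± 0.12. None of the 11 passed between endoglin siRNA and untreated cells, where 0.561% of all genes passed as lower and 0.239% as higher. Of the 12 Kupffer cell markers, 2 were higher with endoglin siRNA than with control siRNA and 0 lower. These were Cd14 (0.54 ± 0.10) and C1qb (0.29 ± 0.08), and both were also higher in untreated cells than in control siRNA cells. Against untreated cells, Cd14 differed by -0.01 with endoglin siRNA, and C1qb was lower (-0.76, limma adjusted p = 0.031). The hepatocyte marker Cyp2e1 (0.76 ± 0.11), 1 of 7 tested, was higher with endoglin siRNA than with control siRNA.

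The array-to-array pattern of Eng had few close matches. Over the 4 log2 ratios, the 5 genes with a symbol nearest to Eng by Euclidean distance were Ccn4, Cthrc1, Flnc, A2m and Ptgis. Ccn4, which encodes a secreted matricellular protein, lay at a distance of 0.38, with ratios of -2.76 and -1.98 with endoglin siRNA and -0.21 and -0.33 in untreated cells. The others lay at 1.01 to 1.16. Cthrc1, a secreted protein of fibrogenic cells, had ratios of -2.34 and -1.32 with endoglin siRNA, and -0.20 and -0.00 in untreated cells. Flnc (the actin cross-linker filamin C), A2m (the protease inhibitor alpha-2-macroglobulin) and Ptgis (prostacyclin synthase) had mean ratios of -2.01, -3.09 and -1.71 with endoglin siRNA. The differences of A2m and Ptgis from untreated cells passed (-3.06 and -1.48, limma adjusted p = 0.0173 and 0.0226). Flnc also lay below control siRNA in untreated cells, with ratios of -0.73 and -0.9998. Its difference from untreated cells did not pass (-1.14, adjusted p = 0.0547). In all 5, as in Eng, the fall was deeper in 1 animal than in the pool. Acvrl1 came 25th by this distance among the genes with a symbol, at 2.05, and the other partner receptors came 808th or later. The 4 ratios share their arrays and these genes were picked for their likeness, so it is a description only.

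Other genes of the pathway were read from lists. Of all genes tested, 7.33% passed as lower and 8.96% as higher with endoglin siRNA against control siRNA. The shares were 0.761% and 1.1% in untreated against control siRNA, and 0.561% and 0.239% in endoglin siRNA against untreated. At shares that low, a short list in which 0 genes passed says little. Of 4 other receptors and co-receptors tested, 0 passed in any comparison, and 8 listed were not tested. Of 4 tested proteins that bind endoglin or shed it, 2 were lower with endoglin siRNA than with control siRNA. Gipc1, a scaffold that binds the endoglin tail, had ratios of -0.56 and -0.71 with endoglin siRNA (mean -0.64 ± 0.08, adjusted p = 0.0029) and -0.39 and -0.61 in untreated cells, which passed as well (mean -0.50, adjusted p = 0.0316). Zyx, the focal adhesion protein zyxin, had a mean of -0.35 ± 0.07 with endoglin siRNA (adjusted p = 0.0145) and of -0.23 in untreated cells (adjusted p = 0.141). Neither differed between endoglin siRNA and untreated cells (adjusted p = 0.726 and 0.724).

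Of 9 Smads and Smad ubiquitin ligases tested, 0 passed in any comparison. Their median ratio was 0.00 with endoglin siRNA, beside 0.02 for all genes.

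Among 12 ligands tested, 2 were higher and 4 lower with endoglin siRNA than with control siRNA, beside 8.96% and 7.33% of all genes. Of the 12, 0 passed in untreated cells or between endoglin siRNA and untreated cells. Bmp4 had ratios of 0.96 and 0.65 with endoglin siRNA and 0.31 and 0.08 in untreated cells (mean with endoglin siRNA 0.81 ± 0.10, adjusted p = 0.0021). Gdf11, an activin-like ligand, had ratios of -0.73 and -0.71 with endoglin siRNA and -0.17 and -0.15 in untreated cells (mean -0.72 ± 0.07, adjusted p = 0.0010). Bmp6, a BMP that the liver makes in the control of iron, had ratios of -0.49 and -0.87 with endoglin siRNA and -0.01 and -0.18 in untreated cells (mean -0.68 ± 0.10, adjusted p = 0.0047). Gdf2 and Bmp10, which encode the ligands that bind endoglin and ALK1 directly, were not tested.

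With endoglin siRNA against control siRNA, 8.96% of all genes passed as higher and 7.33% as lower. Of 6 genes tested that Smad1 and Smad5 induce, 1 was higher in this comparison and 0 lower. This was Id3, an inhibitor of helix-loop-helix factors, with ratios of 0.27 and 0.57 with endoglin siRNA and 0.03 and -0.10 in untreated cells (mean with endoglin siRNA 0.42 ± 0.09, adjusted p = 0.0179). The median of the 6 was 0.21, beside 0.02 for all genes. Of 8 genes induced by Smad2 and Smad3, 3 were lower and 1 higher with endoglin siRNA, with a median of -0.23. Ltbp2, a matrix protein related to those that hold latent TGF-beta, had ratios of -1.26 and -1.06 with endoglin siRNA and 0.17 and 0.17 in untreated cells (mean -1.16 ± 0.08, adjusted p = 2.8e-04). It was the 1 gene of the 8 that passed between endoglin siRNA and untreated cells (-1.33, adjusted p = 0.0048). Col1a1, the chain of type I collagen, had a mean of -0.85 ± 0.08 with endoglin siRNA (adjusted p = 9.4e-04) and -0.23 in untreated cells. Pmepa1, which restrains TGF-beta signalling, had a mean of -0.70 ± 0.10 with endoglin siRNA (adjusted p = 0.0047) and -0.03 in untreated cells.

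**Figure D5:**
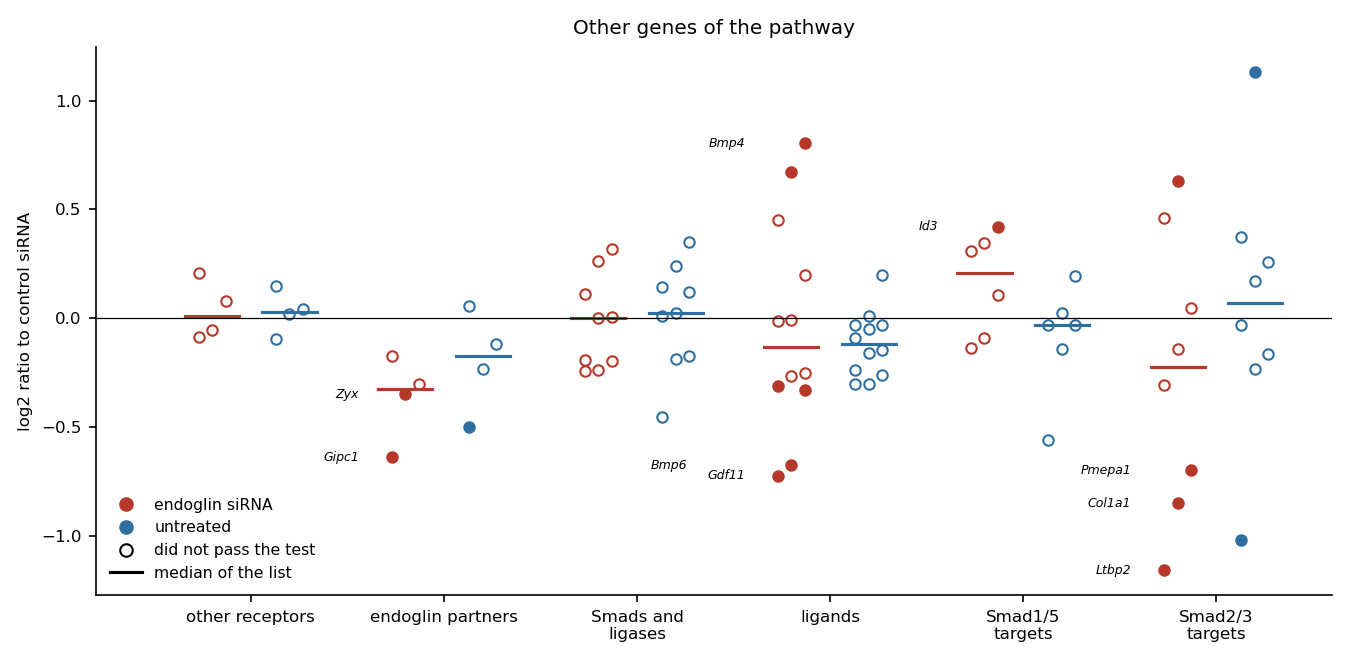
Log2 ratio to control siRNA (vertical axis) of the genes tested in 6 lists of the pathway, in endoglin siRNA cells (left of each pair) and untreated cells (right). Filled points passed the test, lines are the list medians, and up to 3 of the genes that passed with endoglin siRNA are named. Ligands and Smad2/3 targets spread to both sides of 0 with endoglin siRNA, while no point of the other receptors or the Smads is filled.

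The kind of RNA separated some receptors as far as the siRNA did. In the control siRNA dye the pooled RNA had a lower level of Acvrl1 than the RNA of 1 animal, by a log2 difference of -1.26, and of Acvr1b (-1.05) and Tgfbr1 (-0.75), and a higher level of Bmpr2 (1.03). The 2 control signals of 1 animal differed by 0.02 for Acvrl1 and by 0.30 for Bmpr2, and the 2 pooled control signals by 0.06 and 0.11. For Acvr1b and Tgfbr1, which are dim, the control signals of 1 animal differed by 0.0014 and 0.10. Their pooled control signals lay further apart, by 0.48 and 0.45. By the probe that stands for each gene, the pool lay on the same side of 1 animal in endoglin siRNA cells (-1.10 for Acvrl1, -1.01 for Acvr1b, -0.63 for Tgfbr1 and 1.31 for Bmpr2). It did so too in untreated cells (-1.83, -1.46, -1.17 and 0.88, in the same order of genes). The dimmer Bmpr2 probe did not keep this order. Its level was 280 in 1 animal and 225 in the pool in untreated cells, and 206 and 267 with endoglin siRNA. Its control siRNA levels were 177 and 272 on the endoglin siRNA arrays, and 281 and 230 on the untreated arrays. Over all genes, 5.92% differed by 1 or more between pooled and 1-animal control siRNA RNA. The pooled untreated array stands apart in depth, with 93.3% of gene spots above background in Cy5 against 65.7 to 70.2% on the other 3 arrays. The values of the other pooled array show the same direction for all 4 genes.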

How the data were processed

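Agilent 4x44K rat arrays were read in 2 colours. Signals were extracted by the authors in version 9.5.1.1 of Agilent Feature Extraction, per the file headers. Mean and background signals were deposited as linear intensity. Per the file headers, the software's log ratio and its error are log10 of Cy5 over Cy3, with a software p-value per spot. The deposited value table also holds log10 ratios, equal to those of the scanner within 0.0048 once both untreated arrays were turned round in sign. Why they run the other way is not stated. There was no dye swap, so a dye effect is in every ratio to control siRNA and cancels in the difference between endoglin siRNA and untreated cells as far as it is common to both.

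Each array had 43379 gene spots, of which 61.9 to 87.2% were well above background in Cy3. Mean signals were corrected with the local background by normexp in limma 3.58.1 (R 4.3.3) with an offset of 50. On both pooled arrays, 4 and 6 spots far below their local background (by over 100 units) distorted this fit: the fitted background mean in Cy5 was -486 and -775 units with them and -11.1 and -0.053 units without. They were left out of the fit, a choice made after seeing the data, and the fit on all spots is an alternative. Log2 ratios were made by loess within each array, flagged spots were left out, and spots of a probe were averaged. Levels given per dye were put on a common scale across arrays by quantile normalization of the mean brightness. Of 41012 gene probes, 29840 were kept, being well above background in at least 1 dye on at least 2 arrays and usable on all 4 arrays. The brightest kept probe stood for each of 25509 genes, 12100 of them with a symbol in the RefSeq table of the assembly GRCr8.

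A model of 2 group means over all 4 arrays was fitted with limma (lmFit and eBayes, with 6.14 prior degrees of freedom), and p-values were adjusted over all genes by the Benjamini-Hochberg method at 0.05. All arrays share 1 estimate of spread. Ratios to control siRNA were tested against 0, so the spread of control RNA counts only as far as the arrays used separate control RNAs, which the labels do not tell. All arrays lay on 1 slide. Members and lists were chosen with earlier results of these data known. The text names all 10 members, the 5 genes nearest to Eng, and in each list up to 3 genes that passed against control siRNA. Endothelial markers that did not pass and markers that were not tested were named beside this rule, as checks of cell type chosen after their values were seen. On simulated data with 200 changed genes among 25509, endoglin siRNA against control siRNA, 100% were recovered at a log2 change of 1 and of 2, with 11 false calls. The simulated noise was normal, independent between arrays and of the spread that the fit gave each gene. It held no dye effect, shared control RNA or gap between 1 animal and the pool. The simulation therefore checks the working of the fit and does not measure its power in these data. The sequences of the siRNAs and probes were not used here.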

Additional observations from a re-analysis of the deposited data

Results flagged for a closer look

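The ratio to control siRNA differed between endoglin siRNA and untreated cells for 2 of the 10 genes. For Eng the difference was -2.09 on the log2 scale, with ratios of -3.08 and -1.87 on the endoglin siRNA arrays and -0.36 and -0.40 on the untreated arrays (limma adjusted p = 0.0325). For Acvrl1 the difference was -1.04, with ratios of -1.26 and -1.08 on the endoglin siRNA arrays and 0.16 and -0.42 on the untreated arrays (adjusted p = 0.0496).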

How the results depend on the processing

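With endoglin siRNA, Eng and Acvrl1 kept their direction against control siRNA and against untreated cells under every alternative run, while most of the other 8 genes changed sign somewhere. The number of arrays limits the precision throughout. Where a call or sign changed, the cause was not tested.

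Of the 10 genes, 3 passed in endoglin siRNA against control siRNA, 0 in untreated against control siRNA and 2 in endoglin siRNA against untreated, out of 4156, 475 and 204 genes called in all. With the background fitted on all spots, 1, 0 and 0 passed (2094, 183 and 26 genes in all). With the log ratios of Feature Extraction and with the deposited value table, 0 passed in each comparison (0 genes in all, and 7106 and 7104 at an unadjusted p under 0.05 in endoglin siRNA against control siRNA). With median centring 5, 3 and 2 passed (15000, 10035 and 368 genes in all). The share of calls that were higher was then 81.8%, 82.9% and 64.9%, beside 55.0%, 59.2% and 29.9% as reported. With scaling between arrays 0 genes passed in untreated against control siRNA (2513 at an unadjusted p under 0.05). With the RNA source as a block, which pairs the 1-animal arrays with each other and the pooled arrays with each other, 4, 1 and 2 passed (6329, 2147 and 936 genes in all). The gained calls were Tgfbr1 with endoglin siRNA (-0.25, adjusted p = 0.0300) and Acvr1 in untreated cells (-0.30, adjusted p = 0.0322), both lower than with control siRNA. Tgfbr1 was also the gained call without background correction (-0.30, adjusted p = 0.0383) and without untreated arrays (adjusted p = 0.0473). With only the 2 arrays of the group in the fit, 1 gene passed in untreated against control siRNA, which was Eng (-0.38, adjusted p = 0.0429). In endoglin siRNA against untreated, 1 passed with the stricter filter on dim probes, with the mean of a gene's probes and with every probe tested on its own. Leaving out each array in turn, where the lone array of a group is assumed to vary like the other group, gave 2 to 4, 0 to 1 and 1 to 2 of the 10 genes, and 1302 to 4864, 83 to 708 and 114 to 372 genes in all.

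Eng had -2.44 (adjusted p = 0.0746) against control siRNA with the Feature Extraction log ratios and -2.44 (adjusted p = 0.0745) with the value table. Against untreated cells it had -2.14 with both (adjusted p = 0.410 and 0.410) and -2.02 (adjusted p = 0.174) with the background fitted on all spots. Without single arrays Eng ranged from -3.08 to -1.87 with endoglin siRNA against control siRNA, from -0.40 to -0.36 in untreated against control siRNA (where the call was gained without either endoglin siRNA array, adjusted p = 0.0429) and from -2.70 to -1.49 with endoglin siRNA against untreated.

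The median of the 9 partner receptors, reported as -0.17, -0.05 and -0.07 in the same 3 comparisons, was -0.10 (endoglin siRNA against control siRNA) and -0.025 (endoglin siRNA against untreated) with the background fitted on all spots. It was -0.26 and -0.23 with the Feature Extraction log ratios and with the value table, -0.19 and -0.12 with scaling between arrays, and -0.15 and -0.12 with the mean of a gene's probes. With median centring it was 0.16, 0.14 and 0.021, where the median of all genes was 0.34, 0.19 and 0.16. Without single arrays it ranged from -0.18 to -0.16, from -0.055 to -0.0087 and from -0.16 to 0.012.

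Signs turned with median centring in endoglin siRNA against control siRNA for Acvr1 (0.25), Bmpr1a (0.70), Tgfbr2 (0.48) and Acvr2a (0.16). In untreated against control siRNA they turned for Eng (0.30), Tgfbr3 (0.14), Acvrl1 (0.30), Acvr1 (0.073), Bmpr1a (0.50) and Acvr2a (0.095), and in endoglin siRNA against untreated for Acvr1 (0.17), Acvr1b (0.013), Bmpr1a (0.19) and Tgfbr2 (0.021). Without background correction Acvr2a had 0.040 (endoglin siRNA) and 0.030 (untreated) against control siRNA, and Tgfbr3 had 0.0042 in untreated cells. With the Feature Extraction log ratios and the value table Tgfbr3 had 0.0022 in untreated cells, and Acvr2a had -0.0021 and -0.0022 in endoglin siRNA against untreated. With scaling Acvr2a had 5.0e-04 with endoglin siRNA against control siRNA, and with the mean of a gene's probes Tgfbr1 and Bmpr1a had 0.0054 and 0.0048 in untreated cells. With the background fitted on all spots Acvr1b had 0.0038 in untreated cells, and in endoglin siRNA against untreated Acvr1 had 0.023, Bmpr1a 0.0019 and Acvr2a -6.7e-04.

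Without single arrays the sign also turned within these ranges. With endoglin siRNA against control siRNA, Tgfbr3 ranged from -0.37 to 0.0031, Acvr2a from -0.038 to 0.030 and Bmpr2 from -0.0049 to 0.18. In untreated against control siRNA, Acvrl1 ranged from -0.42 to 0.16, Acvr1b from -0.13 to 0.040 and Tgfbr2 from -0.022 to 0.12. With endoglin siRNA against untreated, Tgfbr3 ranged from -0.34 to 0.028, Tgfbr1 from -0.21 to 0.034, Acvr1 from -0.098 to 0.018, Acvr1b from -0.17 to 0.028, Acvr2a from -0.017 to 0.051 and Bmpr2 from -0.084 to 0.10.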
